A study of Mus musculus with 70 samples.

Results

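ST2+ CD44hi and ST2- CD44hi regulatory T cells (Tregs) of the visceral adipose tissue (VAT) were compared in 10 of the 70 RNAseq libraries of a study of Tregs in 6 tissues. The 10 libraries were chosen by their sorted population and their tissue, with a minimum of 1000000 counts per library that all of them passed, and were matched by the animal they came from. The main test of each gene had no term for the mouse and so did not use this matching. The same 5 male Foxp3-YFP-cre mice gave both populations, and no mouse received a treatment. In these mice the Foxp3 locus drives a fusion of YFP and Cre, which marks Tregs. They were 16.6, 17.1, 17.4, 18.1 and 18.6 weeks old (mice 1 to 5). VAT was digested with collagenase and DNase at 37 °C, and the sort took live single cells with CD45.2, CD4 and YFP, without lineage markers such as CD11b and CD8, that were CD44hi and either ST2+ or ST2-. The shared background of both VAT groups is thus the reporter allele, the enzyme digestion and a high level of CD44. Both populations come from 1 sex, 1 strain and a narrow range of ages.

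ST2 is the receptor for the alarmin IL-33 and is encoded by Il1rl1. On binding IL-33 it pairs with the accessory chain Il1rap and signals through MyD88 and IRAK kinases to NF-kB and MAP kinases. Tregs that carry ST2 accumulate in the fat of male mice, where GATA3 and the lipid-sensing nuclear receptor PPARg are known parts of their program. CD44hi marks Tregs that have met antigen, and both populations compared here belong to it.

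Sequencing depth was alike in the 2 populations, whereas the number of sorted cells was not. ST2+ libraries held 1535947 to 2504324 counts and ST2- libraries held 1532998 to 2759926. All 5 ST2+ libraries came from 220 cells, while ST2- libraries came from 220, 93, 192, 118 and 135 cells in mice 1 to 5. Genes with at least 1 count numbered 13669 ± 904 in ST2+ and 14274 ± 1373 in ST2- libraries (mean ± SD, n = 5 each), a difference of -605.6 that was smaller than the spread (exact permutation test, two-sided, p = 0.421, smallest possible p 0.00794). The test ignored the pairing by mouse, and the ST2+ library was lower in 4 of 5 mice. The ST2- library of mouse 2, which came from the fewest cells, had 11877 genes, against 14453 to 15273 in the other 4. The ST2+ library of mouse 2, from 220 cells, was also the lowest of its population, with 12232 genes against 13588 to 14618. Rank correlations of gene levels over the tested genes were 0.873 to 0.927 between ST2+ libraries, 0.875 to 0.938 between ST2- libraries and 0.829 to 0.923 between both libraries of 1 mouse.

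The transcript of the sorted receptor followed the gate in every mouse. Il1rl1 (ENSMUSG00000026069, GRCm38 chr1:40429570-40465415) was at 1047, 1219, 1343, 1183 and 1317 CPM in ST2+ Tregs of mice 1 to 5 and at 8.51, 10.3, 18.7, 22.9 and 12.2 CPM in ST2- Tregs. No library of one population came near the other (log2 fold change 6.40 ± 0.49 SE, adjusted p 5.56e-15). CPM are counts per 1000000 after TMM scaling, fold changes are ST2+ over ST2-, and adjusted p values come from edgeR's quasi-likelihood test over all tested genes. As ST2 protein defined the gate, the value of Il1rl1 checks the labels and is no result of its own. Foxp3, the lineage factor of Tregs, was at 159.7 to 243 CPM in ST2+ and 128 to 188 CPM in ST2- Tregs, and Cd4 was at 328 to 426 and 353 to 526 CPM.

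Il1rl1 has 2 annotated start sites, and the counts per gene do not say which one was used. Both promoters of Il1rl1 are shown because it was the sorted gene. The promoter of Slamf6 is shown beside them because it was the lower gene with the smallest adjusted p. The windows run from 250 bases before to 50 bases after each RefSeq start (GRCm38.p6), 5′ to 3′ on the gene's strand, and capitals mark the GATA words AGATAA or TGATAA on either strand. The lines give Il1rl1 at chr1:40429320-40429619 and at chr1:40439379-40439678 and Slamf6 at chr1:171917212-171917511, all on the + strand.
Il1rl1, first start: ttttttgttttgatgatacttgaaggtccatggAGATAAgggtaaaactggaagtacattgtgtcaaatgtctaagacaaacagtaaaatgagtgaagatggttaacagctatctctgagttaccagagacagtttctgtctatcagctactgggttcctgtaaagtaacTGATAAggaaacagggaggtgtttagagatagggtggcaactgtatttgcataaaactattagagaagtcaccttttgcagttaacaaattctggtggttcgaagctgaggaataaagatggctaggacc
Il1rl1, second start: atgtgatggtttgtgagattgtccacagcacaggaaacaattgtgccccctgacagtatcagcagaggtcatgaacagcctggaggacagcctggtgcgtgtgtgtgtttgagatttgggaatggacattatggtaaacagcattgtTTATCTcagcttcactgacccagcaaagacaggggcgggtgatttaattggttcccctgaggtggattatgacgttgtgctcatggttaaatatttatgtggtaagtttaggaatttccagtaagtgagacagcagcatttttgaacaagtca
Slamf6: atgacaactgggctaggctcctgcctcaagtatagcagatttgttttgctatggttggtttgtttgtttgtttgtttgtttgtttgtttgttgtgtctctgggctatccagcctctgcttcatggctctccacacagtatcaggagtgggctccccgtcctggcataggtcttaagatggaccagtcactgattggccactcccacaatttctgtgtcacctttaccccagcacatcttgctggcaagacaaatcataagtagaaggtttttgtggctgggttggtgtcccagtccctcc
The first Il1rl1 window held 2 GATA words and the second held 1, whereas the Slamf6 window held none. Among 13238 promoter windows of the tested genes, 10.7% held a GATA word. Of the 10 genes that were most clearly higher in ST2+ Tregs, 9 had a promoter in the table, with 11 windows, and only the 2 Il1rl1 windows held a GATA word. None of the 6 windows found for the 10 most clearly lower genes held one. An ETS word (CCGGAAG), an AP-1 word (TGANTCA) and the direct repeat DR1 of nuclear receptors occurred in none of these 17 windows, against 16.7%, 5.2% and 0.0378% of all windows. A TCF word (CTTTGA) was found in 1 of the 2 windows of Tnfrsf25 and in that of Gm8369, against 11.8% of all windows.

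In VAT, 413 of 13173 tested genes were called differentially expressed (DEGs), with 168 higher and 245 lower in ST2+ Tregs. The call required a fold change of at least 1.5 and an adjusted p of at most 0.05, and 3.14% of tested genes met it (1.28% higher and 1.86% lower). Among DEGs, 142 of the 168 higher genes were higher in all 5 mice and 179 of the 245 lower genes were lower in all 5. Every ST2+ library lay above every ST2- library for 107 of the higher DEGs, and below for 104 of the lower ones. Over all tested genes such separation occurred for 1.88% (above) and 1.39% (below). Higher DEGs had a median log2 fold change of 1.34 and a median level of 198 CPM in ST2+ Tregs, while lower DEGs had a median of -1.57 and a level of 87.1 CPM in ST2- Tregs. In 33 DEGs the lower population had 0 counts in all 5 libraries, and in 6 DEGs a single library held over 80% of the summed level of the higher population. These are sums over sorted cells, so that a smaller share of expressing cells and less RNA per cell cannot be told apart.

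The number of DEGs and their split depended on the libraries and the test. With voom and quality weights 392 genes were called, but 249 were higher and 143 lower, so the share of higher DEGs went from 40.7% to 63.5%. With the 10 VAT libraries fitted alone 87 were called (66 higher and 21 lower). Without mouse 2, 3 or 5 the number of DEGs was 235, 240 or 234. The number of sorted cells moved with the populations, and its part in the results was tested only in 2 fits. With sorted cells as a term 440 genes were called (137 higher and 303 lower), 295 of them among the 413. The share of higher DEGs was then 31.1%. Without the 3 ST2- libraries of fewer than 150 cells 218 were called (93 higher and 125 lower), 177 of them among the 413.

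**Figure D1:**
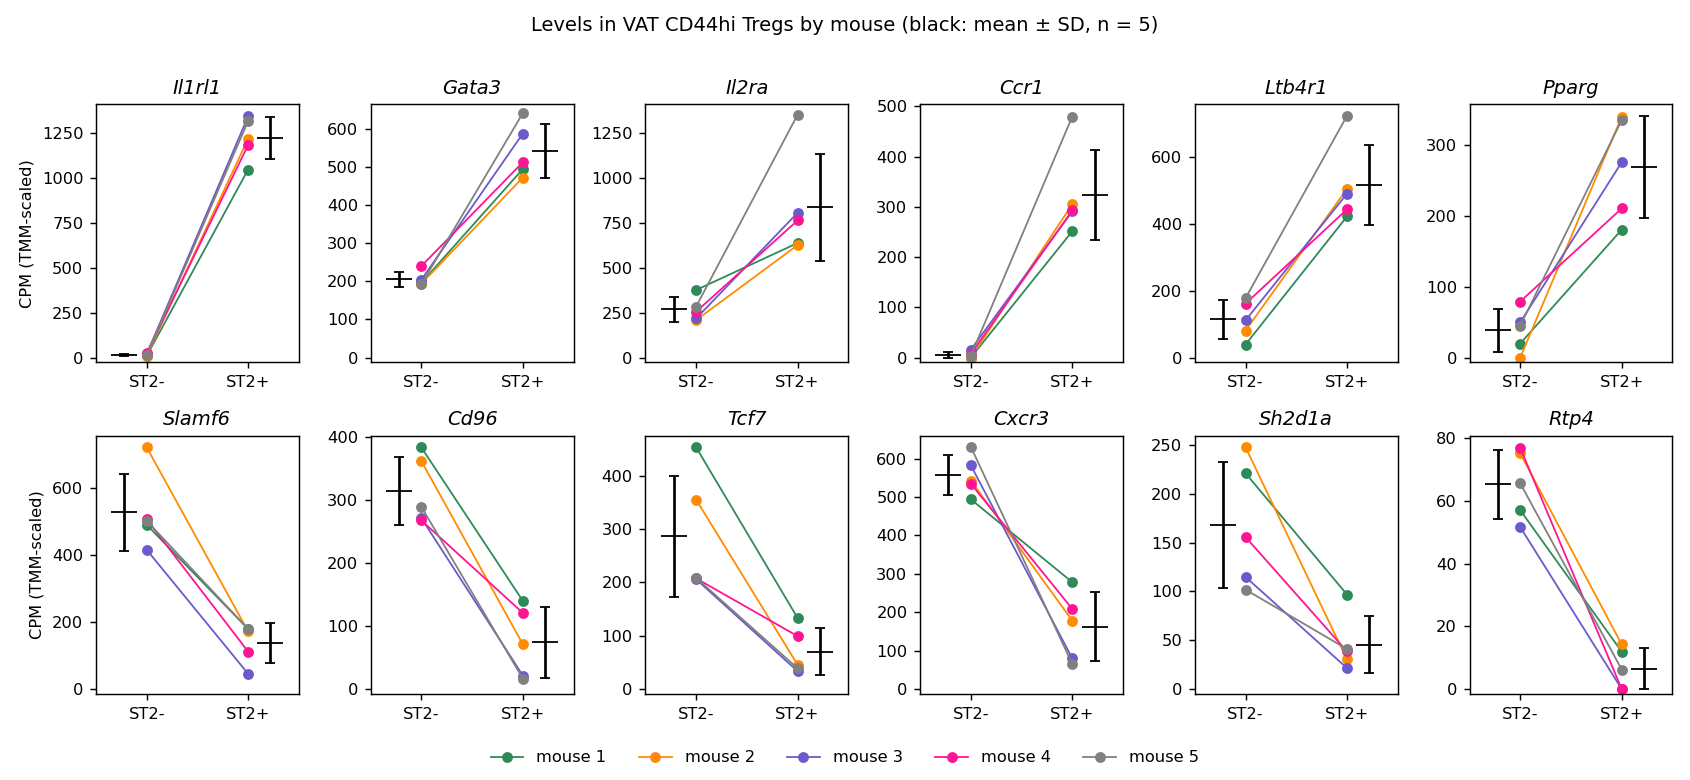
Levels of 12 genes (CPM after TMM scaling, linear axis) in ST2- and ST2+ CD44hi Tregs of VAT, with lines joining the 2 libraries of each of the 5 mice and black bars for the mean ± SD. All 12 genes moved in the same direction in every mouse, Pparg being the 1 gene shown that was not called (adjusted p 0.104).

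Genes of the IL-2 and TNF receptor families and of migration were among the 10 higher DEGs with the smallest adjusted p, which were Il1rl1, Cpm, Gata3, Il2ra, Tnfrsf25, Gm2a, Ccr1, Arl5a, Elovl5 and Ero1l. Cpm (GRCm38 chr10:117629500-117687352), a membrane-bound carboxypeptidase, was at 529.7, 739, 652, 739 and 555 CPM in ST2+ Tregs of mice 1 to 5 and at 130.5, 237, 185, 257 and 205 CPM in ST2- Tregs, so that the lowest ST2+ library was above 2 times the highest ST2- library (log2 fold change 1.67 ± 0.15 SE, adjusted p 8.83e-13). Gata3 (chr2:9857078-9890034), the master factor of type 2 lymphocytes, was at 494, 472, 587, 512 and 641 CPM in ST2+ Tregs of mice 1 to 5 and at 196, 193, 204, 239.8 and 192 CPM in ST2- Tregs. The lowest ST2+ value was nearly 2 times the highest ST2- value (log2 fold change 1.40 ± 0.13 SE, adjusted p 1.86e-11). Il2ra (chr2:11642807-11693193) encodes CD25, the high-affinity chain of the IL-2 receptor, and was at 638, 626, 806, 764 and 1353 CPM in ST2+ Tregs of mice 1 to 5 and at 376, 209, 218, 255 and 284 CPM in ST2- Tregs. Mouse 5 had the highest ST2+ value, and the ST2- value of mouse 1 was the highest of that population but below all ST2+ values (log2 fold change 1.64 ± 0.16 SE, adjusted p 5.93e-11).

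Tnfrsf25 encodes DR3, the receptor for TL1A. It was at 255, 214, 294, 239.3 and 221 CPM in ST2+ Tregs of mice 1 to 5 and at 112, 111, 129, 81.97 and 130.3 CPM in ST2- Tregs, without overlap (log2 fold change 1.12 ± 0.14 SE, adjusted p 1.5e-07). The chemokine receptor Ccr1 was almost absent from ST2- Tregs, with 0, 0, 15.8, 7.25 and 3.56 CPM in mice 1 to 5, and was at 251, 305, 291, 293 and 479.8 CPM in ST2+ Tregs (log2 fold change 5.92 ± 0.83 SE, adjusted p 2.08e-06). The remaining 4 genes also separated the populations. Gm2a, a lysosomal activator of ganglioside breakdown, was at 512 to 814 against 211 to 384 CPM (log2 fold change 1.28). Arl5a, a small GTPase of the Golgi, was at 368 to 578 against 64.9 to 209.7 CPM (1.65), and Elovl5, an elongase of polyunsaturated fatty acids, was at 335 to 649 against 165 to 283 CPM (1.03). Ero1l, an oxidase of the endoplasmic reticulum, was at 199 to 379 against 86.9 to 151 CPM (1.41).

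The 10 lower DEGs with the smallest adjusted p included Slamf6, Cd96, Sh2d1a, Rnf138, Cxcr5, Phlpp1, Gtf2i, Gm8369 and Cblb. Slamf6 (chr1:171917515-171953170), a receptor of T cells with stem-like and follicular features, was at 179, 172, 45.8, 112 and 179 CPM in ST2+ Tregs of mice 1 to 5 and at 490.1, 721, 416, 506 and 502 CPM in ST2- Tregs. ST2+ values were lower in every mouse, with the lowest in mouse 3 (log2 fold change -1.94 ± 0.18 SE, adjusted p 1.2e-11). Sh2d1a, which encodes SAP, the adaptor of SLAM family receptors, fell with it, at 96.7, 30.3, 21.5, 38.6 and 40.96 CPM in ST2+ and 221, 247, 115, 156 and 102 CPM in ST2- Tregs (log2 fold change -1.87 ± 0.23 SE, adjusted p 1.18e-07). The inhibitory receptor Cd96 (chr16:46035657-46120251) was at 139.9, 71.2, 21.5, 121 and 16.7 CPM in ST2+ Tregs of mice 1 to 5 and at 383, 362, 271, 268 and 289 CPM in ST2- Tregs. Mice 3 and 5 had the lowest ST2+ values and no ST2+ library reached an ST2- library (log2 fold change -2.07 ± 0.24 SE, adjusted p 1.66e-08).

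Cxcr5, which guides cells to B cell follicles, had 0 counts in all 5 ST2+ libraries. In ST2- Tregs it was at 150.4, 0, 32.5, 8.36 and 13.7 CPM, at least 134-fold higher on average than the level that 3 counts over the 5 ST2+ libraries would give (adjusted p 1.3e-07). The ST2- library of mouse 2 also had 0 counts, and mouse 1 held most of the signal. Phlpp1, a phosphatase that acts on AKT, was at 0.594 to 16.5 CPM in ST2+ and 42.8 to 126 CPM in ST2- Tregs (-2.87), and Cblb, an E3 ligase that restrains TCR signalling, was at 65.3 to 224 against 337 to 483 CPM (-1.35). Rnf138 (-1.24), Gtf2i (-2.38) and Gm8369 (-2.01) also had no ST2+ library as high as the lowest ST2- library.

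Genes known from VAT Tregs and from type 2 lymphocytes were higher in ST2+ Tregs. Of 30 tested genes of the VAT Treg list 9 rose and 0 fell, with a median log2 fold change of 0.95 against -0.01 over all tested genes. Of 16 tested type 2 genes 7 rose and 0 fell (median 1.26). The lists share Gata3, Il1rl1, Il10, Areg and Il9r, and they were drawn up with earlier results of these data known. Il1rl1, the sorted gene, is among the called genes of both lists and is no result of its own. Over all tested genes 1.28% were called higher and 1.86% lower, beside which the counts of every list stand. Il10, the suppressive cytokine, was at 263, 481, 585, 355 and 767 CPM in ST2+ Tregs of mice 1 to 5 and at 107, 129, 138, 70.8 and 218 CPM in ST2- Tregs, with no overlap (log2 fold change 1.88 ± 0.35 SE, adjusted p 0.000341). Areg, the epidermal growth factor family ligand of tissue repair, was at 490.2, 721, 597, 561 and 810.3 CPM in ST2+ Tregs of mice 1 to 5 and at 128, 379, 228, 293 and 194 CPM in ST2- Tregs, so that every mouse was higher in ST2+ Tregs (log2 fold change 1.38 ± 0.31 SE, adjusted p 0.00325). Il9r was at 112 to 194 against 19.8 to 58.5 CPM (2.04, adjusted p 0.00808).

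The neutrophil-attracting chemokine Cxcl2 was at 319.8, 625, 719, 459.8 and 814 CPM in ST2+ Tregs of mice 1 to 5 and at 3.901, 8.204, 30.03, 37.4 and 32.1 CPM in ST2- Tregs, and the lowest ST2+ value was far above the highest ST2- value (log2 fold change 4.72 ± 0.80 SE, adjusted p 6.71e-05). Its neighbour Cxcl3 was at 94.3 to 359 against 0 to 35.6 CPM (4.78, adjusted p 0.013). Pcsk1, a convertase that cuts prohormones, was at 191, 79.5, 294, 196 and 388 CPM in ST2+ Tregs of mice 1 to 5 and at 0, 39.7, 16.7, 10.04 and 0.509 CPM in ST2- Tregs, the lowest ST2+ value being that of mouse 2, which had the highest ST2- value (log2 fold change 4.15 ± 0.75 SE, adjusted p 0.000258). Hpgds, the prostaglandin D2 synthase of hematopoietic cells, was at 17.8 to 70.03 against 0 to 11.2 CPM (3.11, adjusted p 0.00294), and Cysltr1, a receptor for cysteinyl leukotrienes, was at 40.96 to 247 against 0 to 41.4 CPM (2.71, adjusted p 0.0111). Of the type 2 cytokines, Il5 was at 2.97 to 59.7 against 0 to 5.09 CPM and was not called (adjusted p 0.126), and Il4 was at or below 2.33 CPM in all libraries.

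Several hallmark genes of VAT Tregs separated the populations without being called. Pparg was at 181, 340.2, 276, 211 and 335 CPM in ST2+ Tregs of mice 1 to 5 and at 19.9, 0, 49.7, 79.2 and 45.3 CPM in ST2- Tregs, so that all ST2+ values lay above all ST2- values, but its fit had a large error (log2 fold change 2.79 ± 0.99 SE, adjusted p 0.104). The call of Pparg was made by voom with quality weights (adjusted p 0.00237). Klrg1, an inhibitory receptor of differentiated lymphocytes, was at 780.0, 1010.4, 838, 812 and 1303 CPM in ST2+ and 18.8, 109, 392, 544 and 540.1 CPM in ST2- Tregs (log2 fold change 1.56 ± 0.48 SE, adjusted p 0.0534), and with the mouse as a block it was called (adjusted p 0.0161). Voom with quality weights called Klrg1 as well. Irf4 was at 207 to 315 against 0 to 144 CPM (1.59, adjusted p 0.126), Plin2, a lipid droplet coat protein, was at 404 to 801 against 83.7 to 351 CPM (1.29, adjusted p 0.118), and Ccr2 was at 771 to 1246 against 189 to 603 CPM (0.98, adjusted p 0.191). Of the 30 VAT Treg genes, 14 had every ST2+ library above every ST2- library (1.88% over all tested genes), 5 more than the 9 called, and voom with quality weights called 16.

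Gata3 was the 1 factor called among 20 tested transcription factors of tissue Tregs (median log2 fold change 0.34), whereas voom with quality weights called 5 of them higher. Batf (147 to 275 against 135 to 216 CPM), Prdm1 (81.9 to 249.9 against 113 to 195 CPM) and Maf (259 to 433 against 211 to 419 CPM) overlapped widely, with log2 fold changes of 0.06, 0.05 and 0.01. Rora, the retinoid-related orphan receptor, was at 733 to 972 against 313 to 755 CPM (0.72, adjusted p 0.144).

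Receptors for cytokines, chemokines and lipid mediators changed in both directions. Of 33 tested cytokine receptors 5 rose and 3 fell (median 0.00). Beside Il2ra, Il9r and Csf1r, which had counts in 3 ST2+ libraries and is described with the markers of other cells, the higher ones were Il7r at 774 to 989 against 273 to 700.1 CPM (0.89, adjusted p 0.00115) and Il10ra at 807, 730.2, 956, 757 and 890.1 CPM in ST2+ Tregs of mice 1 to 5 and at 253, 177, 371, 486 and 427 CPM in ST2- Tregs, with the lowest ST2+ value above the highest ST2- value (log2 fold change 1.27 ± 0.27 SE, adjusted p 0.00173). The lower ones were Il18r1 at 96.3, 65.9, 36.9, 197 and 16.7 CPM in ST2+ Tregs of mice 1 to 5 and at 174, 485, 289.5, 362 and 273 CPM in ST2- Tregs, which overlapped only through mouse 4 of the ST2+ and mouse 1 of the ST2- libraries (log2 fold change -1.92 ± 0.34 SE, adjusted p 0.000143), the IL-2 receptor beta chain Il2rb (-0.72, adjusted p 0.0025) and Il6st, the shared chain gp130 (-0.89, adjusted p 0.0354). The alpha and beta chains of the IL-2 receptor thus moved in opposite directions. Il2rb was at 439.8 to 608 CPM in ST2+ and 769 to 969.6 CPM in ST2- Tregs, and with sorted cells as a term it was no longer called because its log2 fold change of -0.56 was short of 1.5-fold (adjusted p 0.0429), nor was Il6st (adjusted p 0.0884).

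Of 25 tested chemokine and lipid chemoattractant receptors 3 rose and 5 fell, and with VAT libraries alone 3 rose and 1 fell. The higher ones were Ccr1, Ltb4r1 and Ccrl2. Ltb4r1, the receptor BLT1 for leukotriene B4, was at 422, 505, 490.2, 443 and 723 CPM in ST2+ Tregs of mice 1 to 5 and at 39.01, 80.7, 111, 161 and 178 CPM in ST2- Tregs, with the lowest ST2+ value above 2 times the highest ST2- value (log2 fold change 2.18 ± 0.46 SE, adjusted p 0.00139). Ccrl2, a non-signalling receptor that presents chemerin, was at 219.6 to 335 against 97.2 to 148 CPM (1.12, adjusted p 0.0143). Receptors of lymph node and follicle traffic fell. Ccr7 was at 50.6, 27.9, 25.7, 167 and 52.8 CPM in ST2+ Tregs of mice 1 to 5 and at 406, 514, 358, 25.6 and 313 CPM in ST2- Tregs, and only mouse 4 went the other way (log2 fold change -2.31 ± 0.45 SE, adjusted p 0.000478). Voom with quality weights did not call Ccr7 (adjusted p 0.293). S1pr1, needed to leave lymphoid tissue, was at 138 to 338 against 383 to 569.5 CPM (-0.97, adjusted p 0.000651), Gpr183 was at 69.6 to 160.4 against 148 to 339 CPM (-1.05, adjusted p 0.000982), and the interferon-induced chemokine receptor Cxcr3 was at 278, 178, 79.8, 209 and 65.3 CPM in ST2+ Tregs of mice 1 to 5 and at 494, 543, 582, 535 and 631 CPM in ST2- Tregs, without overlap (log2 fold change -1.77 ± 0.40 SE, adjusted p 0.00383).

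Of 24 tested integrin and adhesion genes 2 rose and 2 fell. With voom and quality weights or with sorted cells as a term 1 fell. Without the ST2- libraries of fewer than 150 cells, or with VAT libraries alone, 0 fell and 2 rose. Itgb3, the beta chain of the vitronectin receptor, was at 125 to 244 against 26.6 to 122 CPM (1.63, adjusted p 0.000157), and Itgb1, which pairs with many alpha chains, was at 371 to 778 against 826 to 1422 CPM (-0.86, adjusted p 0.00573). Cd44 was at 542 to 820.0 against 202 to 382 CPM (1.05, adjusted p 0.000382), although both gates asked for a high level of CD44 protein. The tetraspanin Cd9 was at 4.17 to 54.1 against 41.8 to 113 CPM (-1.73, adjusted p 0.0143).

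Of 26 tested TNF receptor superfamily genes 3 rose and 1 fell. Tnfrsf25 is described above, and Birc3, an inhibitor of apoptosis bound by TNF receptors, was at 349.9 to 519 against 236 to 355 CPM (0.69, adjusted p 0.000735). Tnfrsf11a, the receptor RANK, was at 28.8, 23.7, 28.9, 0 and 3.47 CPM in ST2+ Tregs and had 0 counts in all 5 ST2- libraries, at least 57.1-fold higher than 3 counts over the ST2- libraries (adjusted p 0.0191). It was not called with sorted cells as a term (adjusted p 0.337). Fas was at 8.403 to 46.1 against 29.4 to 87.6 CPM (-1.03, adjusted p 0.0176).

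Feedback genes of NF-kB and immediate early genes were called in the higher direction alone. Of 21 tested NF-kB genes 5 rose and 0 fell (median 0.40), and of 35 tested immediate early genes 10 rose and 0 fell (median 0.65), with 31 of 35 fold changes above 0. Nfkbiz, the inducible nuclear IkB protein, was at 972, 1155, 1085, 1079 and 1137 CPM in ST2+ Tregs of mice 1 to 5 and at 265, 753, 390.0, 506 and 534 CPM in ST2- Tregs, with ST2+ values within a narrow range (log2 fold change 1.15 ± 0.18 SE, adjusted p 2.04e-05). Nfkbid (1.03, adjusted p 0.00256), Nfkbia (0.61, adjusted p 0.0126), Nfkb1 (0.87, adjusted p 0.00224) and Birc3 were the other NF-kB genes called. Among immediate early genes, Atf3 was at 540.4, 744, 560.2, 299 and 747 CPM in ST2+ Tregs of mice 1 to 5 and at 10.3, 60.2, 191, 106 and 17.8 CPM in ST2- Tregs, without overlap (log2 fold change 2.91 ± 0.49 SE, adjusted p 4.52e-05). Zfp36, which destabilizes cytokine mRNAs, was at 722 to 1069.9 against 216 to 467 CPM (1.26, adjusted p 0.000273), and Fosb was at 362 to 805 against 7.45 to 303 CPM (1.80, adjusted p 0.0423). Jund, Ier2, Ier5, Gadd45b, Nfkbia, Nfkbid and Nfkbiz made up the rest, at log2 fold changes of 0.61 (Nfkbia) to 1.15 (Nfkbiz). The 10 immediate early calls became 6 without the ST2- library of mouse 1 and 6 with VAT libraries alone, and voom with quality weights called 15. Of 22 tested heat shock genes 0 were called (8 of them had a fold change below 0), with Hspa1a at 10.3 to 142 against 0.684 to 30.03 CPM (adjusted p 0.0833).

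Of 18 tested genes of IL-33 and IL-18 receptor signalling, Il1rl1 and the kinase gene Map3k8 rose, Il18r1 fell and 15 did not pass the test (16.7% called, against 3.14% of all tested genes). This share counts Il1rl1, the sorted gene, whose call is no result of its own. Map3k8 was at 149 to 267 against 67.7 to 152 CPM (1.13, adjusted p 0.0167) and lost its call with sorted cells as a term (adjusted p 0.173). The accessory chain Il1rap was at 19.1 to 66.5 against 15.7 to 50.001 CPM (0.51, adjusted p 0.566), Myd88 at 69.1 to 146 against 62.1 to 136 CPM and Traf6 at 52.1 to 144 against 94.7 to 113 CPM, with overlap in each. Of 17 tested STAT and SOCS genes 2 rose and 1 fell (median -0.09), and 11 had a fold change below 0. The higher ones were Cish (0.75, adjusted p 0.00281) and Pim1 (0.76, adjusted p 0.00725), both induced by STAT5. The 2 higher calls went down to as few as 0 in the fits without a mouse.

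Of 32 tested genes of TCR signalling and costimulation 2 rose and 4 fell. The higher ones were Lyn, a Src family kinase at 114 to 213 against 12.8 to 109 CPM (1.34, adjusted p 0.0249), and the phosphatase Ptpn13 at 147 to 417 against 86.5 to 185 CPM (1.11, adjusted p 0.013). The lower ones were Cblb, Themis at 11.2 to 67.7 against 114 to 177 CPM (-1.80, adjusted p 0.00252), Ptpn22 (-0.63, adjusted p 0.00928) and the Tec family kinase Txk (-1.47, adjusted p 0.0135). The 4 became 2 without the ST2+ library of mouse 2 or of mouse 5, and 1 with VAT libraries alone.

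Of 22 tested genes of central and quiescent T cells 9 fell and 1, Il7r, rose (median -0.79). With VAT libraries alone 2 fell and 0 rose. Tcf7, which encodes TCF-1, was at 133, 45.7, 33.6, 99.2 and 38.9 CPM in ST2+ Tregs of mice 1 to 5 and at 453, 355, 206, 207 and 208 CPM in ST2- Tregs, without overlap (log2 fold change -2.01 ± 0.33 SE, adjusted p 3.76e-05). Bach2, a repressor of effector differentiation, was at 9.88, 0, 0, 3.29 and 1.39 CPM in ST2+ Tregs of mice 1 to 5 and at 16.3, 15.04, 15.8, 70.8 and 34.6 CPM in ST2- Tregs, also without overlap (log2 fold change -3.24 ± 0.55 SE, adjusted p 6.39e-05). Actn1 was at 0.823, 0, 0, 0 and 0 CPM in ST2+ and 10.99, 10.9, 6.401, 3.35 and 3.56 CPM in ST2- Tregs, with counts in 1 of 5 ST2+ libraries (adjusted p 1.41e-05). Klf3 (-1.18, adjusted p 0.000333), Satb1 (-1.99, adjusted p 0.00496) and Bcl2 (-0.96, adjusted p 0.0406) fell as well, while Lef1 was at 70.96 to 141 against 117 to 212 CPM (adjusted p 0.124) and Klf2 at 85.1 to 171 against 104 to 222 CPM (adjusted p 0.42).

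Of 17 tested follicular regulatory genes 5 fell and 1 rose (median -0.44, and -1.18 with 2 genes of 0 counts in 1 population set to their bounds). With VAT libraries alone 1 fell and 0 rose. Btla, an inhibitory receptor for HVEM, was at 99.6, 13.7, 9.34, 23.5 and 13.2 CPM in ST2+ Tregs of mice 1 to 5 and at 98.6, 75.9, 114, 112 and 176 CPM in ST2- Tregs, with about the same level in both populations of mouse 1 and a wide gap in the other 4 mice (log2 fold change -1.82 ± 0.33 SE, adjusted p 0.000191). Cd200 (-1.77, adjusted p 0.0021) and the membrane protein Gpm6b (-2.61, adjusted p 0.0198) fell with Cxcr5 and Sh2d1a. Tox2 was the higher one, at 201 to 512 against 8.89 to 241 CPM (1.76, adjusted p 0.0385), and it was not called with sorted cells as a term (adjusted p 0.71).

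Genes of type 1 lymphocytes and of the interferon response were called in the lower direction alone. Of 18 tested type 1 genes 6 fell and 0 rose (median -1.37, and -1.27 with 2 genes at their bounds). Beside Il18r1 and Cxcr3 they included the chemokine Ccl5 at 42.02 to 124 against 148 to 347 CPM (-1.96, adjusted p 0.0215), the death ligand Fasl at 20.1 to 51.5 against 67.7 to 211 CPM (-2.05, adjusted p 0.0188) and the granule protein Nkg7 at 133 to 182 against 257 to 490.1 CPM (-1.36, adjusted p 0.0242). Ccl5 and Nkg7 were not called with sorted cells as a term (adjusted p 0.0602 and 0.0702), and without the ST2- libraries of fewer than 150 cells 2 of the 6 were called.

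Of 30 tested interferon-stimulated genes 6 fell and 0 rose (median -0.81), and 3 had a fold change above 0. Rtp4 was at 11.9, 14.2, 0, 0 and 6.25 CPM in ST2+ Tregs of mice 1 to 5 and at 57.1, 75.2, 51.7, 76.9 and 65.7 CPM in ST2- Tregs, the widest gap of the list among called genes (log2 fold change -3.34 ± 0.51 SE, adjusted p 8e-06). Irgm1, an immunity-related GTPase, was at 11.3 to 125 against 129 to 253 CPM (-1.41, adjusted p 0.0022), and Oas1a, a sensor of double-stranded RNA, was at 6.07 to 27.1 against 30.5 to 65.2 CPM (-1.65, adjusted p 0.00587). Ifih1 (-1.83, adjusted p 0.0198) and Irf9 (-0.79, adjusted p 0.0234) fell as well. Voom with quality weights called 3 of the 6, and with VAT libraries alone 1 fell. Type 17 genes gave 1 call among 12, Il6st, and Ccr6 was at 0.467 to 75.7 against 58.03 to 172 CPM (adjusted p 0.208).

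Of 22 tested survival and death genes 5 fell and 0 rose (median 0.03). The 5 became 1 without the ST2+ library of mouse 3, 3 without that of mouse 2 or 5, 2 with voom and quality weights and 1 with VAT libraries alone. Among these were Bid (-0.92, adjusted p 0.0114), Fas and Fasl, which promote cell death, and Bcl2, which opposes it. Of 20 tested killer-type and inhibitory receptors, Cd200r1 rose (435 to 652 against 153 to 369.7 CPM, 1.02, adjusted p 0.00909), and Cd96 and Btla fell.

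Of 25 tested suppressive and repair effectors 6 rose, 1 fell and 18 did not pass the test (median 0.22). Without the ST2- libraries of fewer than 150 cells 3 rose. Furin, a proprotein convertase, was at 157, 54.6, 175, 52.2 and 86.1 CPM in ST2+ Tregs of mice 1 to 5 and at 20.2, 9.57, 9.85, 33.5 and 27.5 CPM in ST2- Tregs, without overlap (log2 fold change 2.38 ± 0.39 SE, adjusted p 3.9e-05). Rln3, which encodes a relaxin family peptide, was at 178 to 333 against 71.8 to 131 CPM (1.13, adjusted p 0.0467). Il10, Areg and Hpgds were called too, as was Gzma, whose signal came from 1 library (0, 0, 0.467, 0 and 93.7 CPM in ST2+ Tregs and 0 counts in ST2- Tregs) and which was not called with the mouse as a block (adjusted p 0.146). Nt5e, the ectonucleotidase CD73, was the lower one, at 50.4 to 277 against 184 to 494 CPM (-1.003, adjusted p 0.00545). Ctla4 was at 810.0 to 1584 against 693 to 1210.1 CPM (0.16, adjusted p 0.664), and Tigit at 224 to 435 against 264 to 448 CPM (-0.24, adjusted p 0.754). Of 32 tested secreted cytokines and chemokines 3 rose (Il10, Cxcl2 and Cxcl3) and 3 fell (Lta, Fasl and Ccl5), Lta being at 0 to 37.9 against 0.684 to 178 CPM (-2.34, adjusted p 0.00169). Without the ST2+ library of mouse 3, 1 fell, and voom with quality weights called 6 higher.

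Genes that define Tregs were mixed. Of 15 tested members Il2ra rose and Il2rb, Lrrc32 and Izumo1r fell, and 6 fell without the ST2+ library of mouse 1. Lrrc32, which encodes GARP, the surface anchor of latent TGF-beta, was at 233, 31.5, 70.5, 137 and 34.7 CPM in ST2+ Tregs of mice 1 to 5 and at 460.3, 388, 300.3, 410.4 and 229.6 CPM in ST2- Tregs, with mouse 1 the closest pair (log2 fold change -1.80 ± 0.39 SE, adjusted p 0.002). Izumo1r, the folate receptor family protein FR4, was at 262, 122, 56.5, 218 and 256 CPM in ST2+ Tregs of mice 1 to 5 and at 534, 520.3, 344, 385 and 397 CPM in ST2- Tregs, without overlap (log2 fold change -1.26 ± 0.21 SE, adjusted p 3.76e-05). Foxp3 (0.21, adjusted p 0.408), Ikzf2 (-0.22, adjusted p 0.542), Tnfrsf18 (0.20, adjusted p 0.378) and Tnfrsf4 (0.20, adjusted p 0.435) did not pass the test.

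Metabolic genes gave few calls. Of 40 tested lipid genes 2 rose (Elovl5 and Dgat1) and 0 fell, or 5% of the list against 3.14% of all tested genes. Dgat1, which makes triglycerides, was at 382, 373, 473, 432 and 417 CPM in ST2+ Tregs of mice 1 to 5 and at 150.4, 244, 269.8, 263 and 244 CPM in ST2- Tregs, with no ST2+ value as low as an ST2- value, and yet its adjusted p was near the threshold (log2 fold change 0.83 ± 0.25 SE, adjusted p 0.0419). Without any 1 of 8 of the 10 VAT libraries it was no longer called. Fasn was at 62.5 to 197 against 51.3 to 73.4 CPM (adjusted p 0.0686), Fabp5 at 44.5 to 79.8 against 37.9 to 47.8 CPM (adjusted p 0.353) and Cpt1a at 148 to 214 against 169.5 to 228 CPM (adjusted p 0.827). Of 23 tested glycolysis and glucose uptake genes, Tbc1d4, which controls glucose transporter traffic, and Ldhb (-0.66, adjusted p 0.0382) fell. Tbc1d4 was at 68.7, 0.594, 8.87, 6.58 and 0.694 CPM in ST2+ Tregs of mice 1 to 5 and at 428, 221, 87.6, 156 and 70.8 CPM in ST2- Tregs, with mouse 1 the highest in both populations and mouse 5 the lowest in ST2- Tregs (log2 fold change -3.40 ± 0.55 SE, adjusted p 2.51e-05).

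The cell cycle list had 26 tested members and 0 calls in edgeR, but all 26 fold changes were below 0 (median -0.95). Top2a was at 42.7 to 181 against 123 to 362 CPM (adjusted p 0.154) and Mki67 at 0.594 to 115 against 95.03 to 153 CPM (adjusted p 0.491). The GIMAP family had 8 tested members, 0 calls and 8 fold changes below 0, with Gimap6 at 592 to 807 against 633 to 1025 CPM (adjusted p 0.274).

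Among the 8 genes of the study's core set, which it chose on these samples over the tissues other than skin and which are thus no independent evidence, 6 rose in VAT, 1 (Tbc1d4) fell and Klrg1 did not pass the test. Il1rl1, the sorted gene, is among the 6 and is no result of its own. With voom and quality weights, the method of the study, 7 rose and 1 fell, so that Klrg1 was called too. The 6 became 3 without the ST2+ library of mouse 3, the ST2- library of mouse 1 or that of mouse 2, and 3 without the ST2- libraries of fewer than 150 cells. Beside Il1rl1, Gata3, Rln3 and Lyn these were Ptpn13 and Rab4a, a GTPase of endosomal recycling at 91.6 to 130.2 against 1.37 to 31.1 CPM (2.71, adjusted p 0.00589). None of the 8 had a VAT effect that was called different from that of the other tissues.

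**Figure D2:**
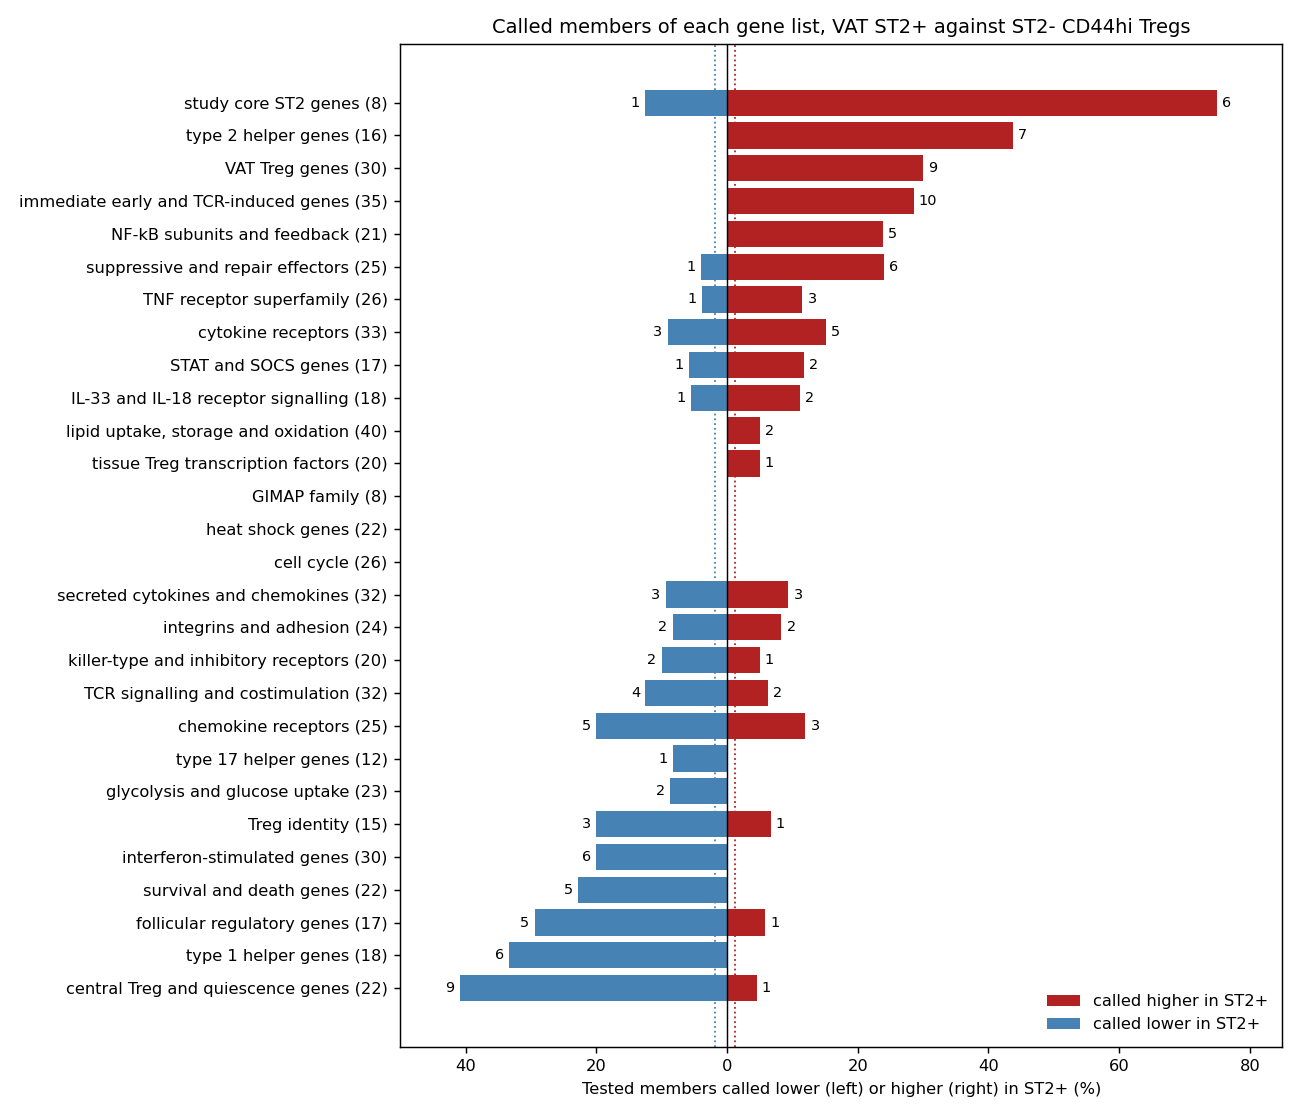
Share of the tested members of each gene list that were called higher (right, red) or lower (left, blue) in ST2+ Tregs of VAT, with the number of tested members in brackets, the number called beside each bar and dotted lines at the shares over all 13173 tested genes (1.28% and 1.86%). Of the lists with at least 5 calls, type 2, VAT Treg, immediate early and NF-kB genes had higher calls alone, whereas type 1, interferon-stimulated and survival genes had lower calls alone. Il1rl1, the sorted gene, is counted in the type 2, VAT Treg, IL-33 and core lists.

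**Figure D3:**
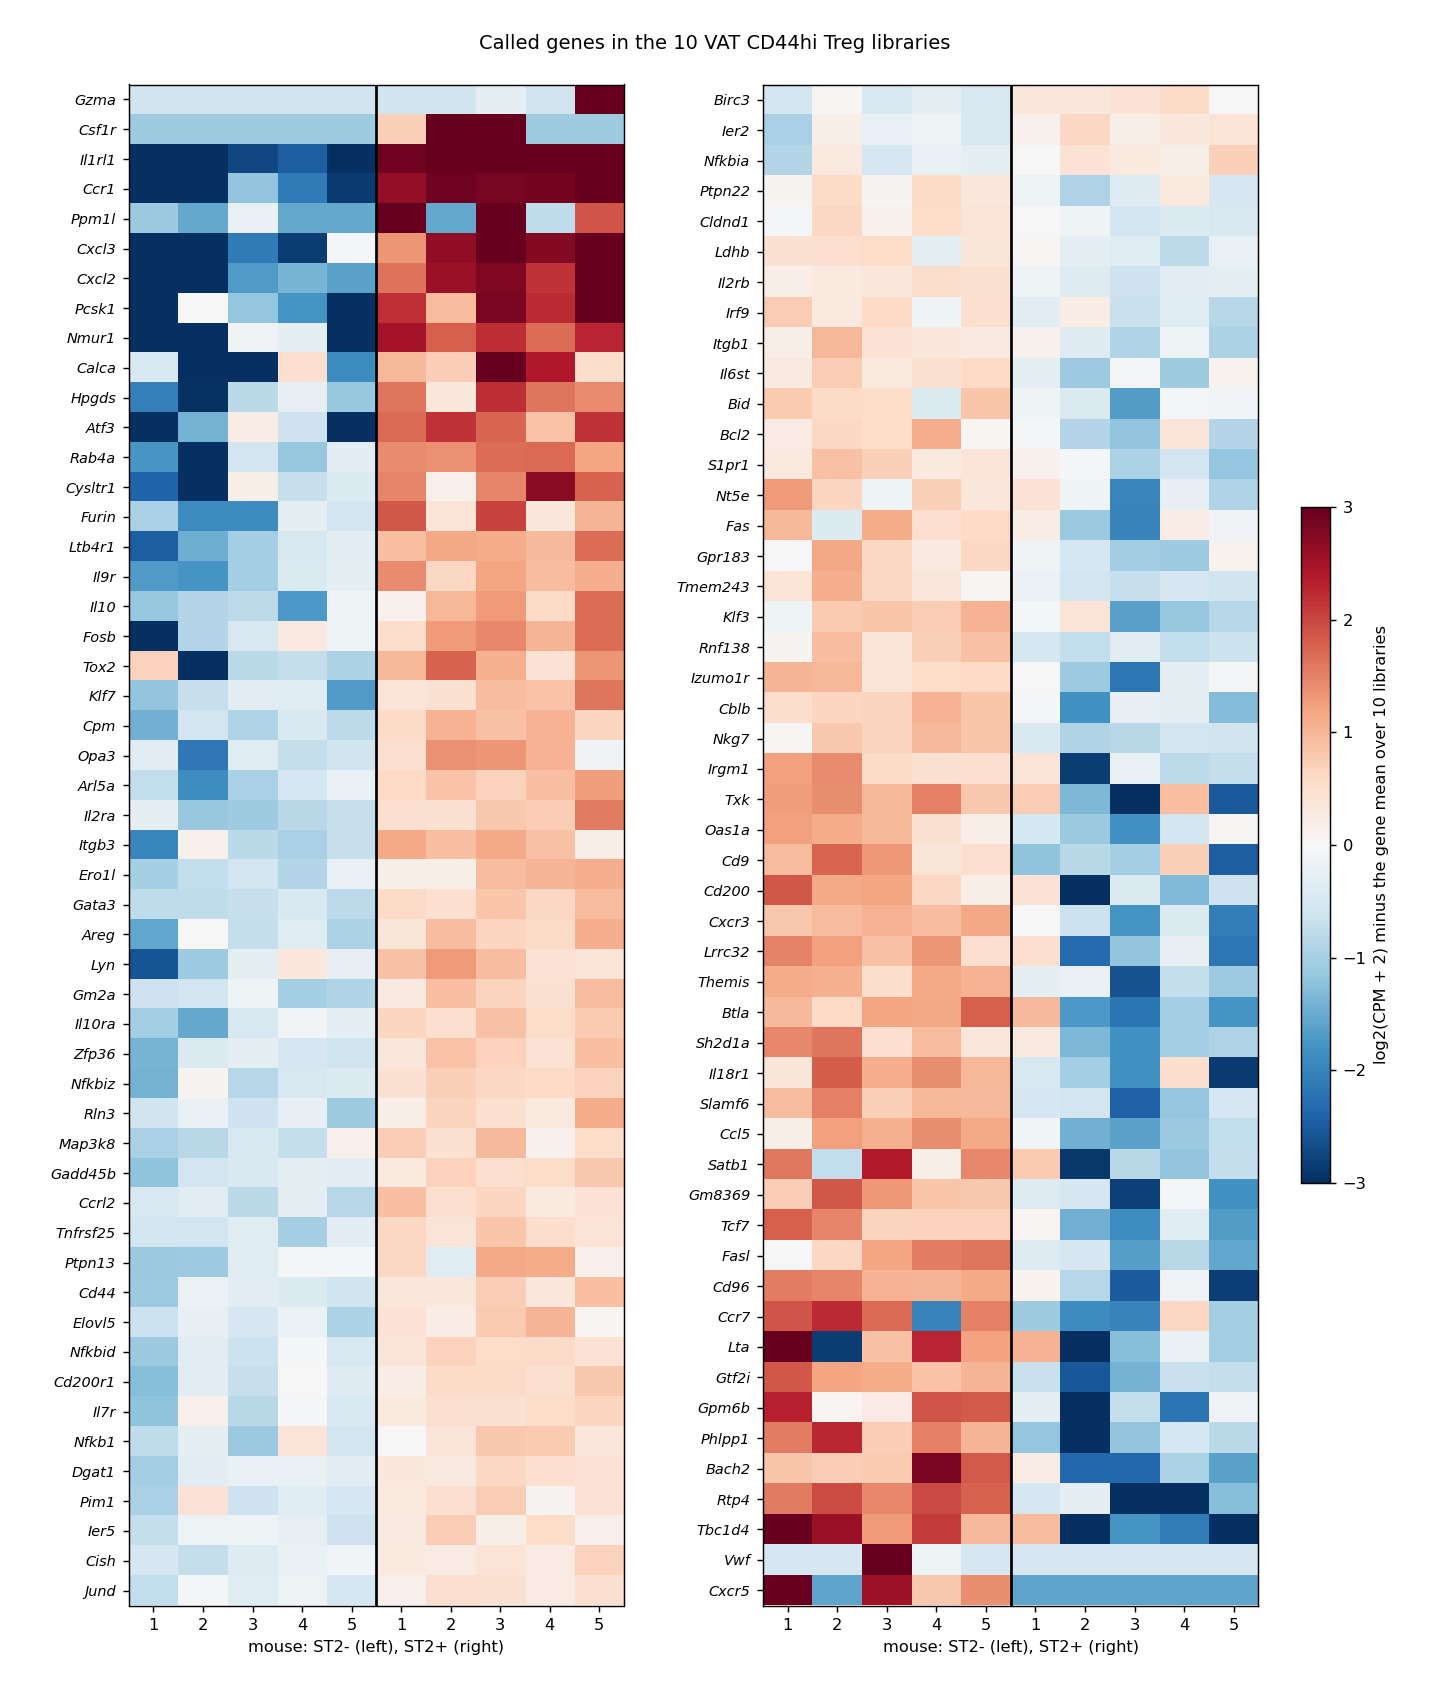
Levels of 101 called genes named by the rule that reached 50 CPM in at least 1 library, as log2(CPM + 2) minus the mean of the gene over the 10 libraries, with ST2- libraries on the left and ST2+ on the right of each panel and the colour scale limited to 3 in each direction. Most rows change colour at the line between the populations, while Gzma and Vwf differ through 1 library each.

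The effect of ST2 status in VAT was set against its mean effect in the other 5 tissues (blood, spleen, lungs, colon and skin) in the same fit. The difference was called for 129 genes, or 0.979% of those tested, 44 with a higher (0.334%) and 85 with a lower (0.645%) VAT effect. Of these, 34 were also higher DEGs and 75 lower DEGs within VAT. Against blood alone the difference was called for 316 genes (2.4% of those tested) and against skin for 95 (0.721%). For spleen the number was 48 (0.364%), for colon 29 (0.22%) and for lungs 18 (0.137%). The colon had 3 ST2+ libraries and blood had 4. Blood and spleen were prepared without enzyme digestion, unlike VAT, and a part of the preparation in the difference was not tested. The 129 went down to 35, 49, 77 or 57 without mouse 2, 3, 4 or 5, and to 85 or 84 without the VAT ST2+ library of mouse 3 or 5 alone.

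The 5 genes with the smallest adjusted p and a higher VAT effect were Il2ra, Klf7, Cpm, Opa3 and Ppm1l. For Il2ra the VAT effect exceeded the mean of the others by 1.65 ± 0.18 SE, adjusted p 5.8e-09 on the log2 scale. Skin and lungs had effects of 0.44 and 0.30, spleen and colon of 0.16 and -0.04, and in blood Il2ra was lower in ST2+ Tregs (-0.92, adjusted p 0.000382). Klf7, a Krueppel-like transcription factor, was at 61.3, 64.1, 90.1, 85.1 and 144 CPM in ST2+ Tregs of mice 1 to 5 and at 19.1, 28.03, 36.9, 35.7 and 12.7 CPM in ST2- Tregs, without overlap in VAT, and had effects of -0.999 to -0.28 in the other tissues (difference 2.20 ± 0.30 SE, adjusted p 3.31e-06). Cpm rose by a log2 fold change of 0.57 to 0.84 elsewhere and by 1.67 in VAT (difference 0.98 ± 0.16 SE, adjusted p 0.000125). Opa3, a mitochondrial protein, was at 70.8 to 201 against 15.7 to 60.6 CPM in VAT (difference 1.79 ± 0.34 SE, adjusted p 0.00173). Ppm1l, a phosphatase of stress kinase signalling, was at 51.9, 0, 50.9, 1.41 and 19.4 CPM in ST2+ and 0.709, 0, 2.95, 0 and 0 CPM in ST2- Tregs, so that its difference rested on mice 1, 3 and 5 (4.65 ± 0.89 SE, adjusted p 0.00173).

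The 5 genes with a lower VAT effect were Slamf6, Cd96, Phlpp1, Cldnd1 and Tmem243. Slamf6 had effects of -0.59 to 0.30 elsewhere (difference -1.69 ± 0.20 SE, adjusted p 4.44e-08), Cd96 of -0.74 to -0.08 (difference -1.75 ± 0.26 SE, adjusted p 3.31e-05) and Phlpp1 of -0.57 to 0.05 (difference -2.56 ± 0.40 SE, adjusted p 8.63e-05). Cldnd1, a claudin domain protein, was at 169 to 247 against 241 to 386 CPM in VAT but was higher in ST2+ Tregs of blood (1.02, adjusted p 0.000114) and spleen (0.79, adjusted p 0.011), with a difference of -1.15 ± 0.19 SE, adjusted p 0.000125. Tmem243 was at 45.8 to 65.9 against 78.9 to 162 CPM in VAT (difference -1.17 ± 0.20 SE, adjusted p 0.000263).

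Among the lists, called differences were mostly in the lower direction. They included 5 of 22 central and quiescence genes (2 more members of that list had a higher VAT effect), 4 of 17 follicular and 4 of 30 interferon-stimulated genes. Of the type 2, VAT Treg, immediate early and NF-kB lists, with 16, 30, 35 and 21 tested genes, 0 were called. Over all tested genes the share was 0.979%, and 0 calls in lists of these sizes are close to it. Il18r1 (-1.92 ± 0.37 SE, adjusted p 0.00217) and Rtp4 (-2.73 ± 0.54 SE, adjusted p 0.00245) fell further in VAT than on average elsewhere. For Il1rl1 the VAT effect differed by 0.38 (adjusted p 1.0) and for Gata3 by 0.37 (adjusted p 0.268), neither of which passed the test.

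**Figure D4:**
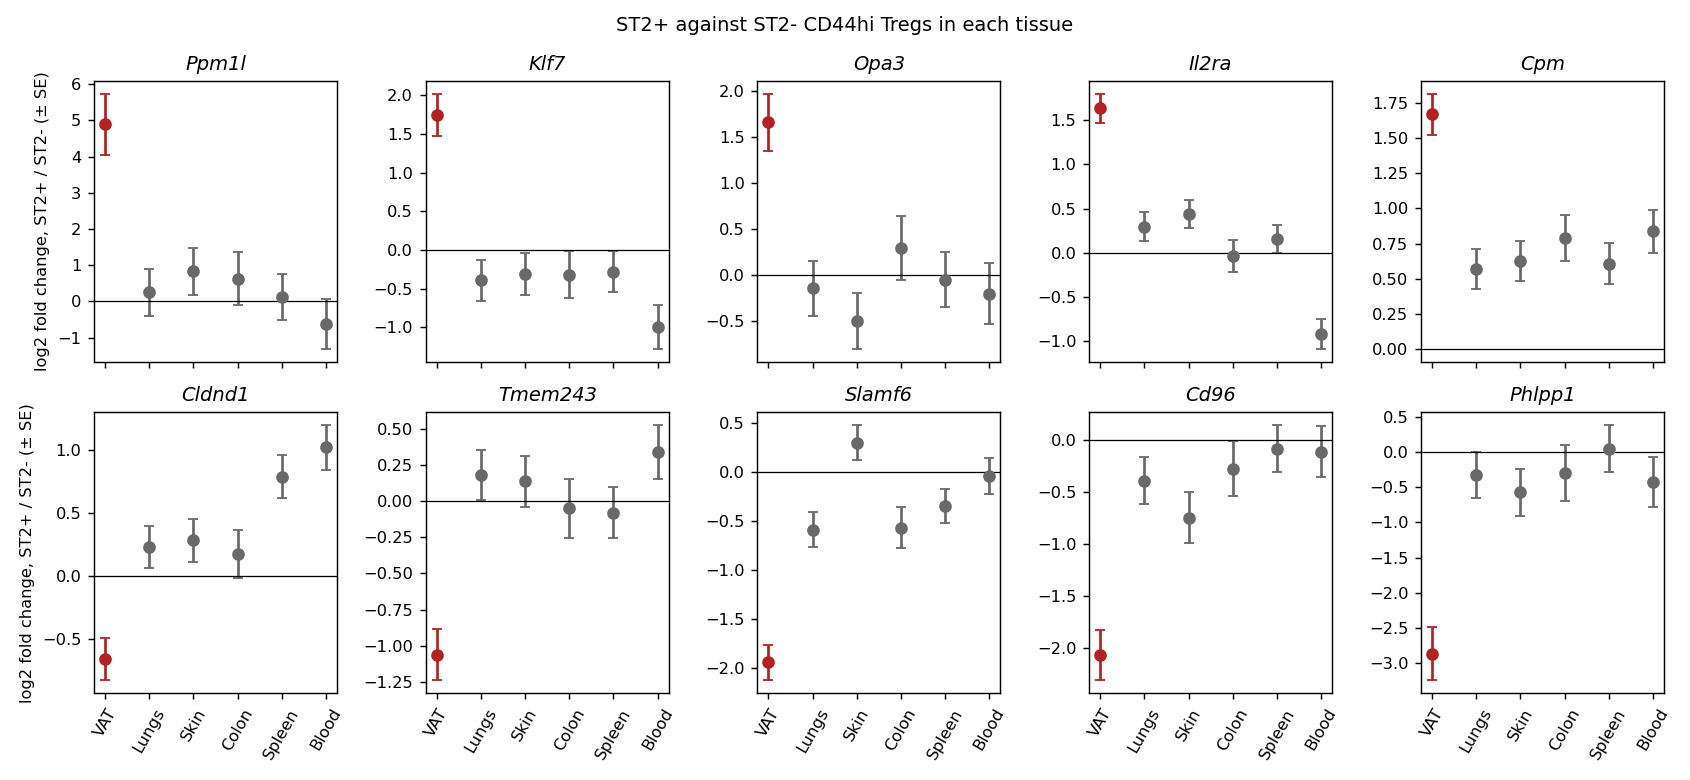
Log2 fold change of ST2+ over ST2- CD44hi Tregs (± SE) in VAT (red) and in the other 5 tissues (grey) for the 10 genes with the smallest adjusted p of the difference, with a separate axis for each gene. The VAT value lies outside the range of the other 5 tissues for all 10 genes. They were chosen by the test against the mean of those tissues, which favoured such a gap.

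Markers of other cells were summed in each library, list by list. For macrophages and monocytes the summed level of 16 markers was 325 to 516 CPM in ST2+ and 275 to 373 CPM in ST2- libraries. Cebpb, which T cells also express, gave 167 to 243 and 173 to 332 CPM of it. Of the 16 markers, 11 had a fold change above 0 and 5 below (median log2 fold change 1.17), and 5 had 0 counts in 1 population. Csf1r was called (4.94, 54.6, 33.1, 0 and 0 CPM in ST2+ Tregs of mice 1 to 5, 0 counts in ST2- Tregs), while Adgre1 was at 0 to 12.8 CPM in all libraries. The part of such RNA in the higher genes was not tested. Of 11 tested markers of group 2 innate lymphoid cells, Nmur1 (63.9 to 115 against 0 to 17.2 CPM, 3.77, adjusted p 0.0419) and Calca (22.2 to 167 against 0 to 21.7 CPM, 3.26, adjusted p 0.0129) were called (18.2%, against 3.14% of all tested genes), and neither was called with sorted cells as a term. Their list summed to 556 to 853 CPM in ST2+ and 242 to 539 CPM in ST2- libraries, without overlap, most of it from Ly6a, which Tregs express, and Il13 was at most 1.23 CPM and Kit at most 0.985 CPM.

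Adipocyte markers summed to 21.6 to 42.4 CPM in ST2+ and 12.99 to 217 CPM in ST2- libraries, with Adipoq, Lep, Cidec and Adrb3 at 0 counts in all 10. The ST2- library of mouse 3 held the highest value through Fabp4 (4.96, 0.684, 202, 2.79 and 7.13 CPM in ST2- Tregs). Fibroblast and mesothelial markers summed to 169 to 356 and 54.5 to 294 CPM, mostly from Gsn, with Pdgfra, Msln and Wt1 at 0 counts. Lrrn4, a mesothelial marker on the list, was at 21.4 to 80.9 against 0 to 12.2 CPM (3.50, adjusted p 0.185). B cell markers summed to 290.4 to 2938 and 570.4 to 1996 CPM, nearly all from immunoglobulin genes, with Pax5 at 0 counts. Dendritic cell markers summed to 276 to 691 and 172 to 1213 CPM, mast cell and granulocyte markers to 0 to 52.1 and 0 to 64.5 CPM, CD8 and NK cell markers to 219.6 to 504 and 185 to 389 CPM with Cd8a at 0 counts, and endothelial and erythroid markers to 0.594 to 81.7 and 2.23 to 321 CPM. In the last of these Vwf was called lower through 1 library (0, 0, 52.2, 0.558 and 0 CPM in ST2- Tregs, 0 counts in ST2+ Tregs), and it was not called with the mouse as a block (adjusted p 0.0932).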

How the data were processed

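Libraries of sorted Tregs were prepared by the authors with SMART-Seq v4 and then NexteraXT. The authors aligned the reads with STAR to GRCm38 and counted them per gene with HTSeq-count (HTSeq 0.4.1 in the submitters' processing notes), and the deposited table holds these raw counts for 70 libraries, with 0 columns left unused. The strand setting of the counting is not given in the sources used here. Of 53465 gene IDs, 53274 were in GENCODE M21 (GRCm38) and 21865 were protein-coding. Libraries under 1000000 counts were left out (3, none from VAT). Genes with at least 1 CPM in 10% of the 67 kept libraries were tested (13173), and 1 CPM stood for 1.44 to 2.82 counts in VAT libraries, so low genes are imprecise.

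Counts were scaled with TMM and fitted with edgeR 4.0.16 (quasi-likelihood, R 4.3.3) with 1 term for each of the 14 groups, which share 1 estimate of the spread. A DEG passed both a 1.5-fold difference and 0.05 for p after Benjamini-Hochberg adjustment across the tested genes. The difference from other tissues was the VAT effect minus the mean of the other 5 effects. Genes detected were compared with an exact permutation test, unpaired, in scipy 1.17.1. Floors used 3 counts over a population and cover counting error only. Figures were drawn with matplotlib 3.10.9. The methods were tested on simulated data.

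Named genes were the 10 DEGs per direction with the smallest adjusted p, the 5 per direction of the difference, 8 genes of the study, and called members of 37 lists (or the 2 smallest p values of a list with fewer than 2 calls), 128 in all. Some genes that the rule or the lists hold are counted but not reported here by name. A few further list members were named after their values were seen. The populations, lists and rule were chosen with earlier results of these data known. Alternatives were limma 3.58.1 (voom with quality weights), DESeq2 1.42.0, median-of-ratios factors, a mouse block, other filters, all 70 libraries, VAT alone, sorted cells and leaving out mice. Leaving out single VAT libraries and voom with the block were added after seeing the data. Samples of 1 number come from 1 animal, which pairs them. Deviations of the same mouse correlated at 0.0204 to 0.201 over 8015 genes (mean 0.0856, against -0.0196 between different mice).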

Additional observations from a re-analysis of the deposited data

Results flagged for a closer look

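Among 62 groups of 5 libraries examined (31 genes in each population), 3 held a library far from the other 4 on the log2 scale, and chance alone marks about 1 group in 20. Gata3 was at 196, 193, 204, 239.8 and 192 CPM in the ST2- libraries, where mouse 4 stood apart at 239.8 CPM although it was below every ST2+ value. Phlpp1 was at 0.594 CPM in the ST2+ library of mouse 2, against 9.80 to 16.5 CPM in the other 4. Opa3 was at 15.7 CPM in the ST2- library of mouse 2, against 45.7 to 60.6 CPM in the others. That library, made from 93 cells, also stood apart in detected genes (11877), below the other ST2- libraries. The ST2+ library of the same mouse, made from 220 cells, was the lowest of its population too (12232).

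The effect of ST2 status differed between VAT and the mean of the other 5 tissues for 19 of the genes named first, by the test of the difference in edgeR. On the log2 scale the VAT effect was higher for Ppm1l (4.65), Klf7 (2.20), Opa3 (1.79), Il2ra (1.65), Arl5a (1.07), Cpm (0.98), Gm2a (0.93), Ero1l (0.85), Elovl5 (0.76) and Tnfrsf25 (0.65). It was lower for Phlpp1 (-2.56), Cd96 (-1.75), Slamf6 (-1.69), Gtf2i (-1.59), Sh2d1a (-1.41), Gm8369 (-1.36), Tmem243 (-1.17), Cldnd1 (-1.15) and Rnf138 (-0.995). The highest adjusted p among them was 0.0449 (Ero1l, edgeR). Cpm, Il2ra, Slamf6, Cd96, Phlpp1, Klf7, Ppm1l, Opa3, Cldnd1 and Tmem243 were picked by the adjusted p of this difference, so their passing it is no separate result. The others were picked by the adjusted p of the VAT effect, which is a term of the difference. Their choice thus favoured a large difference, and their passing it is no independent result either.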

How the results depend on the processing

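The number of DEGs in VAT (413) was 262 with all 70 libraries, 218 without ST2- libraries of fewer than 150 cells, 87 with VAT libraries alone and 84 with VAT libraries alone and a replicate block for mouse. It was 365 to 605 in the other fits of all mice, 493 with the replicate block in all 14 groups, and 234 to 524 when mice or single libraries were left out. The 129 genes of the difference from other tissues became 244 with DESeq2, 76 with voom and quality weights (39 of them higher), 72 with all 70 libraries, 67 without the ST2- libraries of fewer than 150 cells and 35 to 185 with mice or libraries left out. The cause was not tested. For 128 named genes, 3151 of the values under these settings kept their direction and their side of the threshold, 504 lost the call, 15 gained it and 12 changed direction. The mouse block ended the calls of Gzma and Vwf, made that of Klrg1 and changed no other call of a named gene. Of 106 named calls, 87 were made with voom and quality weights, 87 with sorted cells as a term and 101 by DESeq2. Without the ST2- libraries of fewer than 150 cells 67 were made, and 75 were made in all 10 fits without a single library. With VAT libraries alone 45 of the 106 were made. All settings counted here that keep the other tissues (block, voom, DESeq2, sorted cells, fewer than 150 cells left out, single libraries) made 51.

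The 5 genes that changed direction were called neither in the reported fit nor in the fit that turned them. Fabp4 (-1.01) was at 0.80 with the replicate block, 0.90 with voom and quality weights, 0.23 with both and 1.59 with VAT alone and the block, and went from -1.49 to 2.43 with libraries left out. Cd209a (3.08) went from -1.01 to 9.61, Ebf1 (-2.17) from -3.97 to 1.73 and Cpa3 (-0.90) from -4.21 to 1.40 with libraries left out, and Gimap6 (-0.24) was at 0.092 without the ST2- libraries of fewer than 150 cells. Cd22, Cidea and Dpt had no value in fits whose remaining VAT libraries held none of their counts. The difference in detected genes was -845.75 to -408.25 with mice left out and did not pass the test in any of these.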

Other observations

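Of the 413 DEGs, 191 were called in all 10 fits that left out a single VAT library (85 higher and 106 lower in ST2+ Tregs), and 133 were called in all 5 fits without a mouse. A further 140 genes were higher and 79 lower in every ST2+ library than in every ST2- library without being called.

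Siglech, a marker of plasmacytoid dendritic cells, was at 0, 0, 67.5, 0 and 158 CPM in ST2- Tregs of mice 1 to 5, and Cd209a was at 191 CPM in the ST2+ library of mouse 2. Cdh5, an endothelial cadherin, was at 20.7 CPM in the ST2- library of mouse 3, the VAT library with the highest Vwf (52.2 CPM) and Fabp4 (202 CPM).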
